A study of Mus musculus with 12 samples.

Results

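Dual specificity phosphatases were followed through the first hours of the macrophage response to lipopolysaccharide (LPS), a component of the outer membrane of Gram-negative bacteria. The members were Dusp1, Dusp2, Dusp4, Dusp5, Dusp6, Dusp7, Dusp8, Dusp10, Dusp14 and Dusp16, chosen by gene symbol. For each symbol the probe set with exactly 1 annotated symbol and the highest mean log2 value over the 12 arrays was taken, and all 10 were found among 19938 genes measured. The cells were macrophages grown from bone marrow of C3H/HeN mice with IL-3, IL-6, SCF and L-cell conditioned medium as a source of M-CSF, and plated without conditioned medium for stimulation. They were left unstimulated or received 100 ng/ml LPS of Escherichia coli for 45 or 270 min, and all cultures, the unstimulated ones included, received 200 µM 4-thiouridine for the last 35 min. The thiol label let the RNA made in that window be biotinylated and pulled out on streptavidin beads. This fraction is called nascent RNA, and it covers 10 to 45 min and 235 to 270 min of LPS; the unfractionated RNA of the same cultures is called total RNA. Both fractions at 3 times make 6 groups, each with 2 arrays (Affymetrix Mouse Gene ST 1.0) from 2 independent experiments. Values are log2 intensities, and each pair of values below gives experiment 1 and then experiment 2.

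These phosphatases remove phosphate from both the threonine and the tyrosine of the activation loop of MAP kinases and so switch ERK, JNK and p38 off. Many of their genes are themselves induced by the MAP kinase pathways, which makes them a negative feedback, and in macrophages Dusp1 is known as a brake on p38 and on cytokine production after Toll-like receptor signals. Dusp1, Dusp2, Dusp4 and Dusp5 encode nuclear enzymes, Dusp6 and Dusp7 cytoplasmic enzymes that act on ERK, and Dusp8, Dusp10 and Dusp16 enzymes that prefer JNK and p38. Dusp14 encodes a small, atypical member without the kinase-binding domain of the others.

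Promoter sequences are shown for 4 members whose nascent RNA rose at 45 min: Dusp1, Dusp5 and Dusp8, because they held a searched motif, and Dusp2, which rose most and held none. Each is the 250 bases before the start site in RefSeq (build GRCm38.p6), 5′ to 3′ on the strand of the gene, with motif matches in capitals. The windows are chr17:26508473-26508722 on the minus strand for Dusp1, chr7:142095285-142095534 on the minus strand for Dusp8, chr19:53528895-53529144 on the plus strand for Dusp5 and chr2:127335909-127336158 on the plus strand for Dusp2.
Dusp1: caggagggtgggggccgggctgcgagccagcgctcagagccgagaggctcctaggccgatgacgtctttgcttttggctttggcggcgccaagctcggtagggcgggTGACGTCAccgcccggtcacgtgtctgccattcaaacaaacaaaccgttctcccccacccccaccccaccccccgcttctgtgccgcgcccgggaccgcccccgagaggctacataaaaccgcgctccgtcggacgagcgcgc
Dusp8: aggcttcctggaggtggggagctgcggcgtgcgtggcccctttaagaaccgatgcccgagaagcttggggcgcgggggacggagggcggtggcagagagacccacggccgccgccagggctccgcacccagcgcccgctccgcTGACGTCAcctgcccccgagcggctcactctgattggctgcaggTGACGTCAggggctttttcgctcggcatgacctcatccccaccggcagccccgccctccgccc
Dusp5: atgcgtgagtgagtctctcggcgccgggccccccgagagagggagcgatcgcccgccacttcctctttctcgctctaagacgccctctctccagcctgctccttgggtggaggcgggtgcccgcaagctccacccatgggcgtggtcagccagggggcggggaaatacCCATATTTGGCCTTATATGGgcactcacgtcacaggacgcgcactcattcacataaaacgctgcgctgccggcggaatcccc
Dusp2: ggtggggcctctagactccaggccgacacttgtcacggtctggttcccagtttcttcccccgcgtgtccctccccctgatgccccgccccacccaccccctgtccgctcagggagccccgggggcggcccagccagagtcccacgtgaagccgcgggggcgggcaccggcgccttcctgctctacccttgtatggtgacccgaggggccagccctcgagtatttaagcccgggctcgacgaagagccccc

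Dusp1 held the cAMP response element TGACGTCA once, at -143 to -136 from the start, and Dusp8 held it at -107 to -100 and at -63 to -56. Of 32851 RefSeq promoter windows of the same length 1.55% held it on either strand. The capitals in Dusp5 are a pair of adjoining CArG boxes, the motif bound by serum response factor, at -82 to -73 and at -72 to -63, and 1.47% of windows held a CArG box. The table had windows for 9 of the 10 members, with no entry for Dusp4. Of these 9, 2 held TGACGTCA, 1 held a CArG box and 0 held the AP-1 site TGACTCA (read on the other strand as TGAGTCA; in 4.46% of windows), TATAAA (12.4%) or the NF-kB consensus (7.25%). These matches describe letters in a window of the sequence; binding was not measured.

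The labelled cell type was checked first. All 10 macrophage markers, among them Adgre1 and Csf1r, lay above background on all 12 arrays, background being the 95th percentile of 1027 olfactory receptor genes on each array (6.18 to 6.80). In nascent RNA 1 of them was higher and 0 lower at 45 min (3.05% and 5.88% of all genes). At 270 min 4 were higher and 6 lower (8.87% and 14.2% of all genes). In total RNA 0 were higher and 0 lower at 45 min (0.662% and 0.0201% of all genes). At 270 min 2 were higher and 3 lower in total RNA (7.02% and 12% of all genes). Of 8 mast cell and basophil markers, Kit was above background on all arrays, and Cpa3 (up to 8.92) and Mcpt8 (up to 9.59) on 8 arrays each. The array means of these 8 markers ran from 5.52 to 5.92 in unstimulated nascent RNA and from 5.77 to 6.87 in unstimulated total RNA, and at 270 min from 5.92 to 6.57 and from 6.20 to 7.11. Markers above background on no array numbered 6 of 8 for neutrophils, 3 of 5 for dendritic cells, 3 of 3 for B cells, 3 of 4 for T and NK cells and 1 of 4 for fibroblasts, and the 1 erythroid marker measured was above it on none. The T cell marker Cd3e (up to 7.11) and the fibroblast markers Col1a1 (up to 7.82) and Col1a2 (up to 7.66) were above background on all 12 arrays. Col3a1 of fibroblasts and Zbtb46 (up to 7.96) and Ccr7 of dendritic cells were above it on 11, and Mpo and Camp of neutrophils on 1 each. The part of other cells in the phosphatase values was not tested. In these bulk cultures a change in the make-up of the cells and a change in RNA per cell cannot be told apart.

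**Figure D1:**
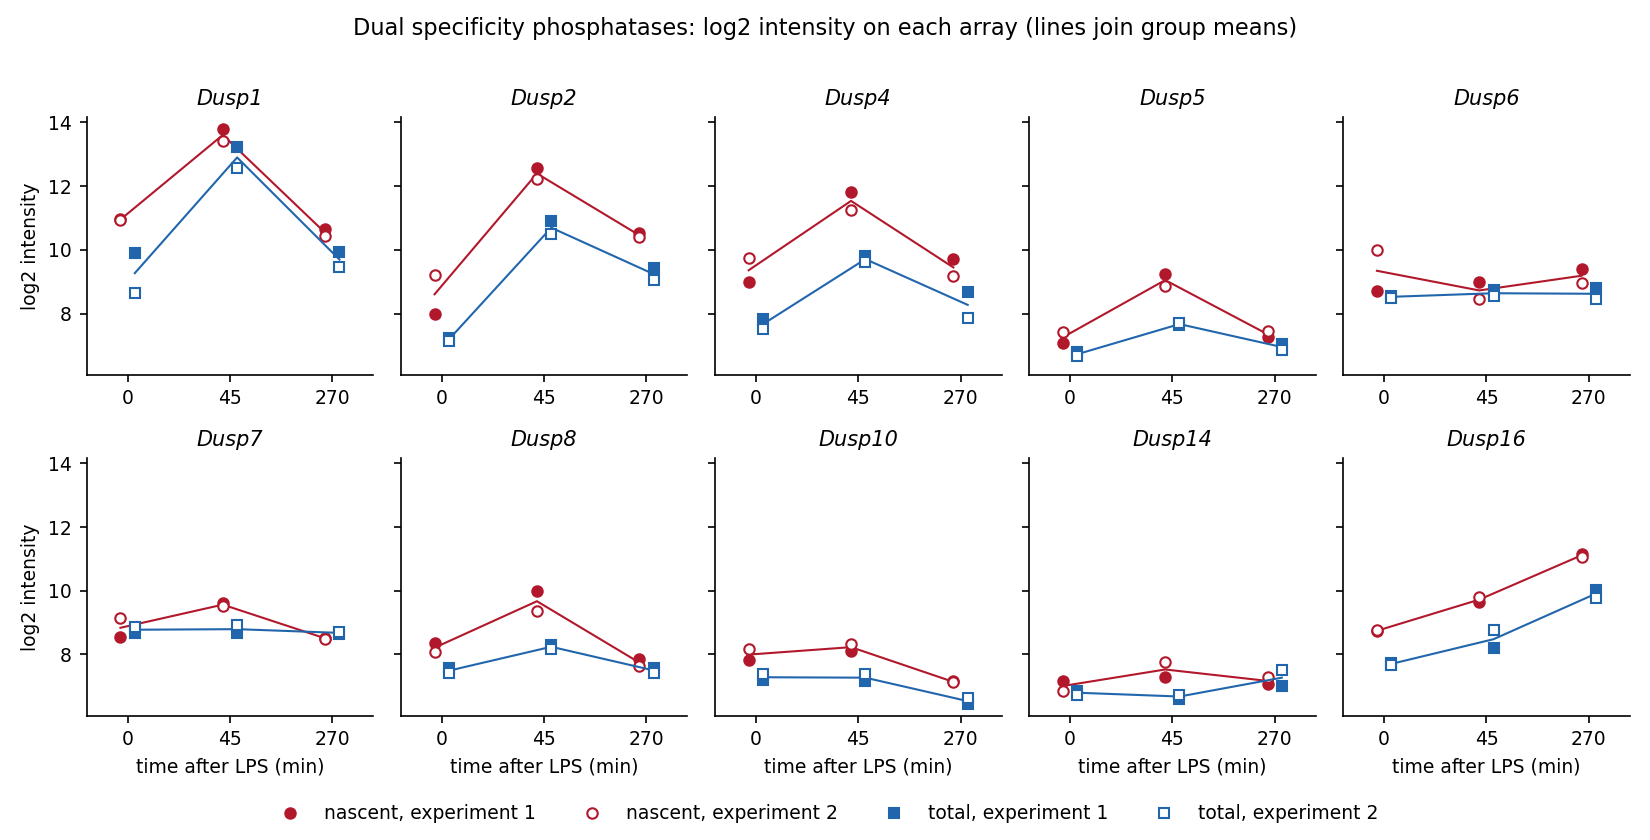
Log2 intensity of the 10 dual specificity phosphatases on each of the 12 arrays (y axis) by time after LPS in min (x axis), with nascent RNA as circles, total RNA as squares, experiment 1 filled, experiment 2 open, and lines joining the means of 2 arrays. Dusp1 and Dusp2 peak at 45 min in both fractions, Dusp16 is highest at 270 min, and Dusp6 shows no group clear of the next in order.

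Nascent RNA of 6 of the 10 phosphatases rose within 45 min of LPS, and 0 fell. The 6 were the nuclear enzymes Dusp1, Dusp2, Dusp4 and Dusp5 and, of those that prefer JNK and p38, Dusp8 and Dusp16. Of all genes tested 3.05% were called higher and 5.88% lower in this comparison, where called means an adjusted p below 0.05 in limma. The median log2 difference was 1.22 over the 10 members and 0.11 over all genes.

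Dusp2, an inducible nuclear phosphatase of immune cells, had the largest nascent rise. Its nascent RNA measured 7.99 and 9.22 in unstimulated cells, 12.58 and 12.21 at 45 min and 10.52 and 10.40 at 270 min, and its total RNA 7.24 and 7.13, 10.89 and 10.50, and 9.42 and 9.06. Both unstimulated pairs are the lowest of their fraction and the unstimulated nascent arrays stand far apart, but no stimulated array of the same fraction is as low. The nascent difference at 45 min was 3.79 (SE 0.32, 13.8-fold, adjusted p = 6.73e-06), with 4.59 in experiment 1 and 2.99 in experiment 2. Total RNA rose by 3.51 (SE 0.32, 11.4-fold, adjusted p = 3.24e-05). At 270 min Dusp2 was still above unstimulated cells by 1.85 in nascent RNA (SE 0.32, adjusted p = 0.000724) and by 2.05 in total RNA (SE 0.32, adjusted p = 0.000422).

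Dusp1 was the other strongly induced member, and it came back down by 270 min. Its nascent RNA measured 10.97 and 10.93 without LPS, 13.79 and 13.41 at 45 min and 10.65 and 10.42 at 270 min. Total RNA measured 9.89 and 8.64, then 13.22 and 12.57, then 9.94 and 9.45. The 45 min arrays are well clear of the rest in both fractions, while the 270 min arrays of total RNA overlap the unstimulated ones. The rise at 45 min was 2.65 in nascent RNA (SE 0.34, 6.3-fold, adjusted p = 0.000254) and 3.63 in total RNA (SE 0.34, 12.4-fold, adjusted p = 3.68e-05). At 270 min the differences from unstimulated cells were -0.42 (adjusted p = 0.386) and 0.43 (adjusted p = 0.438), neither of which passed the test. Without the unstimulated total array of experiment 2 the latter was -0.20, and without that of experiment 1 it was 1.05 and passed (adjusted p = 0.0311).

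Dusp4 encodes another nuclear phosphatase of ERK and JNK. On the nascent arrays it measured 8.99 and 9.73, then 11.83 and 11.24, then 9.73 and 9.17, and its total RNA 7.83 and 7.51, then 9.79 and 9.62, then 8.68 and 7.86. As for Dusp1, the 45 min arrays are the highest of each fraction. The rise at 45 min was 2.18 in nascent RNA (SE 0.33, adjusted p = 0.000991) and 2.04 in total RNA (SE 0.33, adjusted p = 0.00563), and at 270 min the differences were 0.09 (adjusted p = 0.855) and 0.60 (adjusted p = 0.24). The total RNA call at 45 min did not pass without the unstimulated total array of experiment 2 (adjusted p = 0.0667), or without the 45 min total array of experiment 1 (0.0727) or 2 (0.0516).

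Dusp5 is a nuclear phosphatase with a strong preference for ERK, and in these cells it was among the dimmer members, at least 0.14 above background on every array. Its nascent RNA measured 7.08 and 7.42, then 9.24 and 8.85, then 7.25 and 7.45. Total RNA measured 6.79 and 6.65, then 7.62 and 7.71, then 7.04 and 6.86. Nascent RNA rose by 1.80 at 45 min (SE 0.20, adjusted p = 7.81e-05) and stood at 0.10 above unstimulated cells at 270 min (adjusted p = 0.733). In total RNA the 45 min difference of 0.95 (SE 0.20, adjusted p = 0.052) missed the threshold although the arrays did not overlap, and it passed once the experiment was a block (adjusted p = 0.026). This difference also passed with quantile scaling within each fraction (adjusted p = 0.0453), dim genes left out (0.0343) or no intensity trend (0.0391). The total RNA difference did not pass with quantile scaling over all arrays, an offset of 32 before log2 or the mean of all probe sets of a gene.

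Dusp8 encodes a phosphatase that prefers JNK and p38. In nascent RNA it measured 8.36 and 8.07, then 9.98 and 9.37, then 7.87 and 7.63, and its total RNA 7.57 and 7.42, then 8.31 and 8.17, then 7.58 and 7.41. The total arrays at 270 min and in unstimulated cells are nearly level. Nascent RNA rose by 1.46 at 45 min (SE 0.23, adjusted p = 0.00131), and the total RNA difference of 0.75 (SE 0.23, adjusted p = 0.438) did not pass. A dimmer probe set of Dusp8, above background on 6 arrays, differed by 2.06 in nascent and by 0.81 in total RNA at 45 min, the same directions.

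Dusp16, the other JNK and p38 phosphatase that rose, was highest at 270 min. Its nascent RNA measured 8.73 and 8.76, then 9.66 and 9.79, then 11.16 and 11.07. Total RNA measured 7.74 and 7.67, then 8.21 and 8.76, then 10.04 and 9.79. Both arrays at each time lie above those of the time before, in both fractions. Nascent RNA rose by 0.98 at 45 min (SE 0.21, adjusted p = 0.0115) and by 2.37 at 270 min (SE 0.21, 5.17-fold, adjusted p = 2.34e-06). Total RNA differed by 0.78 at 45 min (SE 0.21, adjusted p = 0.281) and rose by 2.21 at 270 min (SE 0.21, 4.62-fold, adjusted p = 6.89e-06). The nascent call at 45 min did not pass without the unstimulated nascent array of experiment 2 (adjusted p = 0.065) or without the 45 min nascent array of experiment 1 (0.0546) or 2 (0.108).

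The remaining members did not pass the test in nascent RNA at 45 min. Dusp7, a cytoplasmic phosphatase of ERK, measured 8.54 and 9.14, then 9.62 and 9.51, then 8.53 and 8.49 in nascent RNA and between 8.64 and 8.92 on all 6 total arrays. Its nascent difference at 45 min was 0.73 (SE 0.22, adjusted p = 0.0596), and it passed once the experiment was a block (adjusted p = 0.0213). The difference also passed with quantile scaling over all arrays (adjusted p = 0.03) or within each fraction (0.0268). The same held with dim genes left out (0.0416) and with no intensity trend (0.0392). The nascent difference of Dusp7 did not pass with an offset of 32 before log2 or with the mean of all probe sets of a gene. Dusp14 lay between 6.85 and 7.77 in nascent and between 6.62 and 7.52 in total RNA, with a nascent difference of 0.52 at 45 min (SE 0.22, adjusted p = 0.179). Dusp6, the classical cytoplasmic feedback phosphatase of ERK, had unstimulated nascent arrays that were 1.29 apart, at 8.69 and 9.99, against 8.99 and 8.46 at 45 min and 9.41 and 8.96 at 270 min. Its nascent difference at 45 min was -0.62 (SE 0.34, adjusted p = 0.306), made of 0.30 in experiment 1 and -1.53 in experiment 2, and it was 0.029 without the unstimulated nascent array of experiment 2. Without that of experiment 1 it was -1.26 and passed (adjusted p = 0.0161). Its total RNA lay between 8.45 and 8.79 on all 6 arrays.

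**Figure D2:**
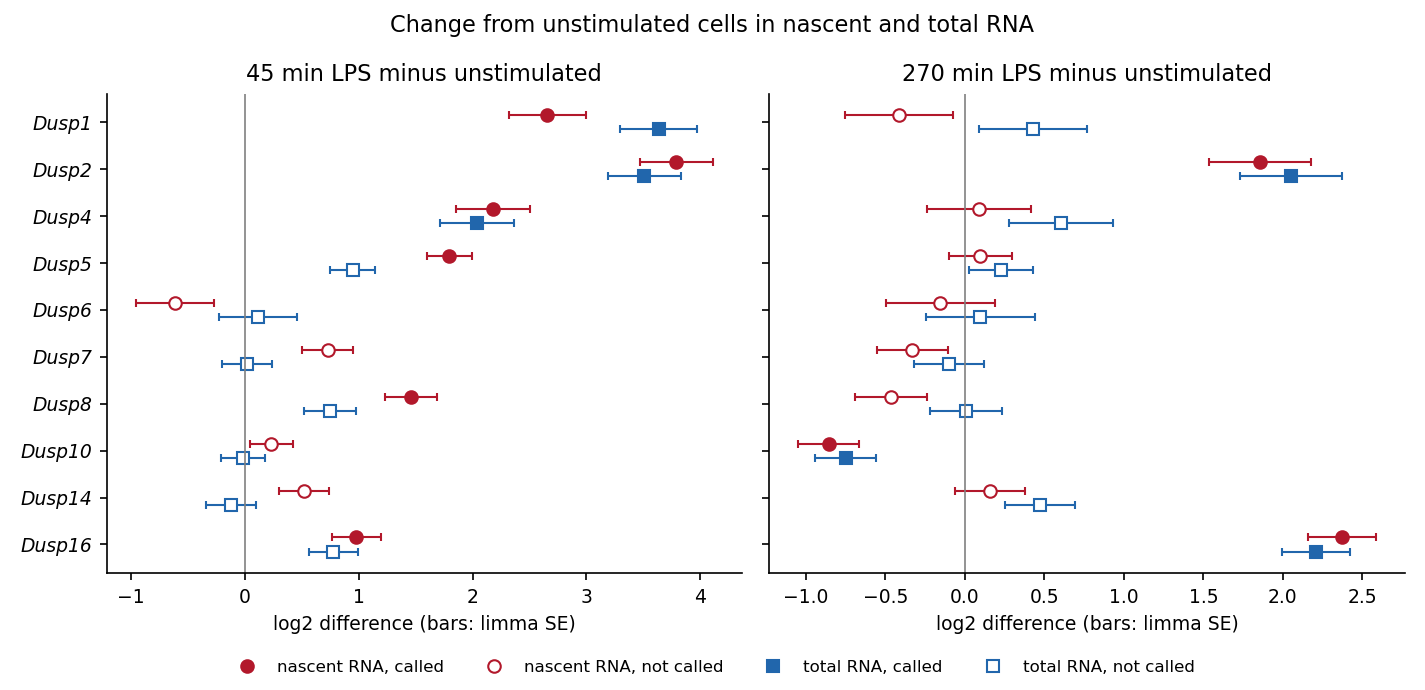
Log2 difference from unstimulated cells (x axis) for each phosphatase (y axis) at 45 min (left) and 270 min (right), nascent RNA as circles and total RNA as squares, with bars for the SE from limma and filled symbols for adjusted p below 0.05. At 45 min 6 nascent and 3 total values are called, all higher; at 270 min Dusp2 and Dusp16 are higher and Dusp10 lower in both fractions.

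In total RNA at 45 min 3 members rose, Dusp1, Dusp2 and Dusp4, against 0.662% of all genes called higher and 0.0201% lower, and 0 members fell. The median difference was 0.76 over the members and -0.01 over all genes. By 270 min 2 members were above unstimulated cells in each fraction, Dusp2 and Dusp16, where 8.87% of genes were called higher in nascent and 7.02% in total RNA. Dusp10 alone of the members fell, against 14.2% and 12% of genes called lower. The 10 members had a median difference of -0.03 in nascent and 0.33 in total RNA at 270 min, and all genes 0.12 and 0.07.

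Dusp10 encodes a phosphatase of JNK and p38 that restrains innate immune responses. The nascent arrays read 7.82 and 8.18, then 8.12 and 8.34, then 7.15 and 7.13, and its total RNA 7.19 and 7.39, then 7.17 and 7.38, then 6.44 and 6.63. The 270 min arrays are the lowest of each fraction, and the total array of experiment 2 at that time lay 0.09 under background, the only array of any member to do so. Dusp10 fell by 0.86 in nascent RNA (SE 0.19, adjusted p = 0.00487) and by 0.75 in total RNA (SE 0.19, adjusted p = 0.0133). With quantile scaling within each fraction the nascent difference was -0.52 (adjusted p = 0.0506), and without the unstimulated nascent array of experiment 2 it was -0.68 (adjusted p = 0.0566). The total RNA call did not pass without the unstimulated total array of experiment 2 (adjusted p = 0.113) or the 270 min total array of experiment 1 (0.0747).

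The fall from 45 to 270 min was widespread in the family. Nascent RNA of 7 members fell (10% of all genes called lower), 1 rose (6.74% called higher), and Dusp6 and Dusp14 did not pass. The 45 min arrays here are also those of the comparison with unstimulated cells, so a gene high at 45 min by error would appear in both. Dusp1 fell by 3.07 (8.39-fold lower, SE 0.34), Dusp4 by 2.09 (SE 0.33), Dusp2 by 1.94 (SE 0.32), Dusp8 by 1.92 (SE 0.23), Dusp5 by 1.70 (SE 0.20), Dusp10 by 1.09 (SE 0.19) and Dusp7 by 1.06 (SE 0.22). Their adjusted p-values were at most 0.00363, the value of Dusp7. Dusp16 alone went the other way and rose by 1.39 (SE 0.21, adjusted p = 0.000327). The median was -1.39 over the members and 0.01 over all genes.

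Total RNA was compared over the same interval. From 45 to 270 min 6 members fell (11.5% of all genes called lower) and Dusp16 rose by 1.43 (SE 0.21, adjusted p = 0.000321; 6.64% called higher). Dusp1 fell by 3.20 (SE 0.34, adjusted p = 1.77e-05), Dusp2 by 1.46 (SE 0.32, adjusted p = 0.00562), Dusp4 by 1.44 (SE 0.33, adjusted p = 0.00663), Dusp8 by 0.74 (SE 0.23, adjusted p = 0.0366), Dusp10 by 0.74 (SE 0.19, adjusted p = 0.0155) and Dusp5 by 0.72 (SE 0.20, adjusted p = 0.0219). Only the falls of Dusp1 and Dusp10 passed without the 270 min total array of experiment 2, and Dusp10 did not pass without that of experiment 1 (adjusted p = 0.0771) or without the 45 min total array of experiment 2 (0.11). Without the 45 min total array of experiment 1 Dusp2 (adjusted p = 0.0561), Dusp5 (0.0648) and Dusp8 (0.15) did not pass, and without that of experiment 2 Dusp5 (0.105) and Dusp8 (0.0865) did not. Dusp8 also missed without the 270 min total array of experiment 1 (0.0567) or either nascent array of that time (0.0515 for each). With quantile scaling over all arrays Dusp5 (-0.46, adjusted p = 0.0986) and Dusp8 (-0.44, adjusted p = 0.236) did not pass.

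The next comparison set nascent against total RNA of the same culture, on the same probe set. A positive difference means a larger share of that gene among newly made RNA than among all RNA, relative to the other genes on the arrays; it is not an amount per cell. In unstimulated cells 7 members were higher in nascent RNA (7.58% of all genes called higher), at 45 min 9 (11.2%), and at 270 min 5 (6.24%); 0 were lower at any time. The medians over the members were 0.77, 1.10 and 0.59, and over all genes 0.01, 0.15 and 0.05. Quantile scaling over all arrays moved the median of all genes at 45 min by -0.11.

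Dusp2, Dusp4 and Dusp16 were higher in nascent RNA at all 3 times by more than 1 on the log2 scale. Dusp16 was the most even of them, at 1.04 (SE 0.20), 1.24 (SE 0.20) and 1.20 (SE 0.20) in unstimulated cells, at 45 and at 270 min. Dusp4 was at 1.69 (SE 0.24), 1.83 (SE 0.24) and 1.18 (SE 0.24), and Dusp2 at 1.42 (SE 0.25), 1.70 (SE 0.25) and 1.22 (SE 0.25). For these 3 genes the largest adjusted p was 0.00146, that of Dusp4 at 270 min. In unstimulated cells the cultures disagreed in size, with 0.75 and 2.09 for Dusp2 and 1.16 and 2.22 for Dusp4. The unstimulated Dusp1 cultures disagreed too, at 1.07 and 2.29, with nascent arrays at 10.97 and 10.93 and total arrays at 9.89 and 8.64. For Dusp2 and Dusp4 the nascent arrays were instead the farther apart. The mean of Dusp1 was 1.68 in unstimulated cells (SE 0.22, adjusted p = 1.78e-05), then 0.71 at 45 min (SE 0.22, adjusted p = 0.0205) and 0.84 at 270 min (SE 0.22, adjusted p = 0.0102). The last 2 calls of Dusp1 did not pass with quantile scaling over all arrays (adjusted p = 0.082 and 0.052), and the one at 45 min not without either culture of that time (0.15 and 0.426). The one at 270 min did not pass without the 270 min culture of experiment 2 (0.127) or either 45 min culture (0.0719 and 0.0716).

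Dusp5, Dusp7 and Dusp14 were higher in nascent RNA at 45 min and did not pass at the other times. Dusp5 was at 0.53 (adjusted p = 0.119), 1.38 (SE 0.22, adjusted p = 7.45e-05) and 0.40 (adjusted p = 0.272). Dusp7 was at 0.06, 0.77 (SE 0.21, adjusted p = 0.0105) and -0.17, and Dusp14 at 0.21, 0.85 (SE 0.20, adjusted p = 0.00365) and -0.10. Leaving out a 45 min culture ended the call of Dusp7 (adjusted p = 0.188 without experiment 1 and 0.0688 without experiment 2) and, for experiment 2, that of Dusp14 (0.138). Dusp8 was higher in unstimulated cells by 0.72 (SE 0.21, adjusted p = 0.0226) and at 45 min by 1.43 (SE 0.21, adjusted p = 3.71e-05), and stood at 0.25 at 270 min (adjusted p = 0.549). The unstimulated call of Dusp8 did not pass without the culture of experiment 1 (adjusted p = 0.125).

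Dusp10 was higher in nascent RNA at all 3 times, by 0.71 (SE 0.20, adjusted p = 0.0181), 0.96 (SE 0.20, adjusted p = 0.00125) and 0.60 (SE 0.20, adjusted p = 0.0483). Its call in unstimulated cells did not pass without either culture of that time (adjusted p = 0.0523 and 0.157). Its call at 270 min did not pass without either culture of that time (adjusted p = 0.624 and 0.254) or either 45 min culture (0.0646 and 0.0628). Dusp6 was higher in unstimulated cells, by 0.82 (SE 0.26, adjusted p = 0.0329), which was 0.15 in the culture of experiment 1 and 1.49 in that of experiment 2. Without the latter culture the difference was 0.15 (adjusted p = 0.872), and without either 45 min culture it did not pass (adjusted p = 0.11 for each). With quantile scaling within each fraction the unstimulated calls of Dusp6 (adjusted p = 0.074) and Dusp8 (0.0542) did not pass. At 270 min Dusp6 stood at 0.57 (adjusted p = 0.167), which passed with a block for the experiment (adjusted p = 0.0255), in a fit whose p-values do not use the spread of the gene itself.

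**Figure D3:**
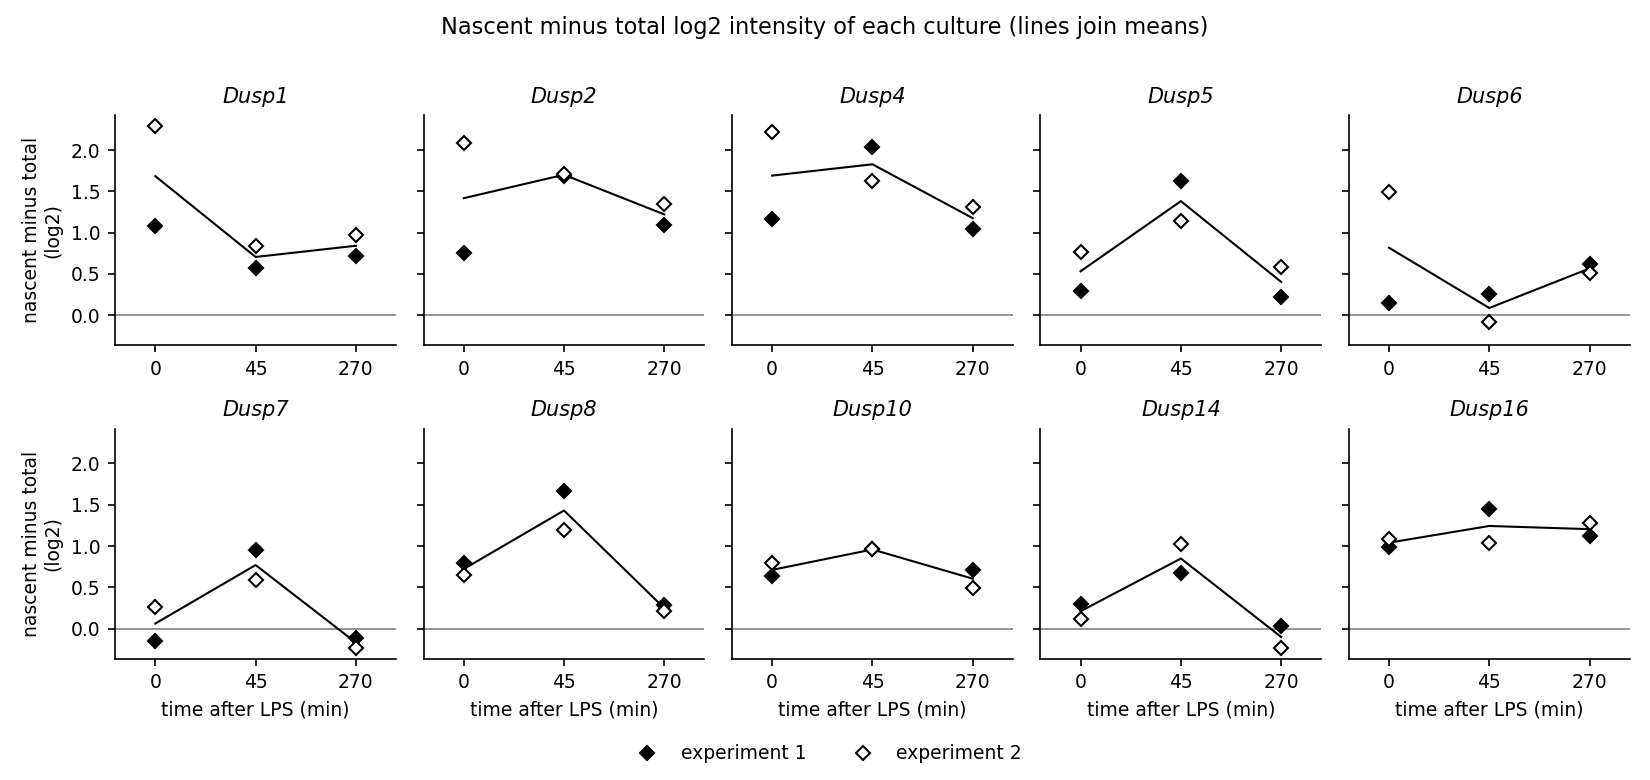
Nascent minus total log2 intensity of each culture (y axis) by time after LPS in min (x axis) for the 10 phosphatases, experiment 1 filled and experiment 2 open, with lines joining the means of 2 cultures. Dusp8 goes from 1.67 and 1.19 at 45 min to 0.28 and 0.21 at 270 min, and the unstimulated cultures lie far apart for Dusp1, Dusp2, Dusp4 and Dusp6.

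Whether a response differed between nascent and total RNA was tested on the culture differences themselves. From unstimulated to 45 min limma called 0 members, where 0.476% of all genes were called higher and 0.567% lower. At an unadjusted p under 0.05, 4 members were higher and 1 lower. The share of all genes at an unadjusted p was not computed, so these unadjusted counts have no share beside them. From unstimulated to 270 min limma called 0 members, where 0.12% of all genes were called higher and 0.722% lower. Unadjusted, 0 members were higher and 1 lower, again without a share of all genes. For Dusp1 the nascent change less the total change was -0.98 at 45 min (adjusted p = 0.14; -0.51 and -1.45 in the 2 experiments) and -0.84 at 270 min (adjusted p = 0.408; -0.36 and -1.33). Without the unstimulated culture of experiment 2 these were -0.37 and -0.23, and without that of experiment 1 -1.59 and -1.45. Dusp1 was called lower in both comparisons once the experiment was a block (adjusted p = 0.00141 and 0.015). That blocked fit of the 6 culture differences leaves 2 residual degrees of freedom, and limma estimated an infinite prior there, so its SE is taken from the trend over all genes and not from the spread of the gene itself. From 45 to 270 min Dusp8 was called (1.8% of all genes called lower, 1.41% higher). Its nascent RNA fell by more than its total RNA, with a difference of -1.18 (SE 0.30, adjusted p = 0.0336), of -1.38 in experiment 1 and -0.98 in experiment 2.

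The Dusp8 call did not pass without any of the 4 stimulated cultures (adjusted p = 0.273 and 0.146 without those of 45 min, 0.154 and 0.307 without those of 270 min). With the experiment as a block 4 members were called lower: Dusp8, Dusp5 (-0.98, adjusted p = 0.0174, against 0.102 without the block), Dusp7 (-0.94, adjusted p = 0.0163, against 0.105) and Dusp14 (-0.95, adjusted p = 0.0227, against 0.0833). The SE hardly moved with the block, from 0.31 to 0.30 for Dusp5, from 0.30 to 0.28 for Dusp7 and from 0.29 to 0.30 for Dusp14, and these p-values come from the fit with the infinite prior.

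The members' patterns were compared after each was centred on its own mean over the 12 arrays. Dusp5 and Dusp8 were the closest pair, with a root mean square difference of 0.25 on the log2 scale, and Dusp1 and Dusp16 the farthest, with 1.91. The genes nearest to each induced member were found over all 12 arrays by the same measure. Nearest to Dusp1 were Btg2, an antiproliferative immediate early gene (0.46), the transcription factor Egr2 (0.50) and Ier3 (0.56). Nearest to Dusp2 were Csrnp1 (0.32), the nuclear IkB protein Nfkbid (0.45) and the small GTPase Gem (0.49). Nearest to Dusp4 were Flrt3 (0.30), Ppp1r15a, a phosphatase subunit of the stress response (0.38), and the GTPase Rnd3 (0.39). Nearest to Dusp5 were Bcl2l11 (0.17) and Pmaip1 (0.18), both pro-apoptotic, and the mitochondrial carrier Slc25a33 (0.19), which was also near Dusp8 (0.19) beside Apbb3 (0.19) and Cyren (0.23). Nearest to Dusp16 were the kinase Stk38l (0.24), Spred1, an inhibitor of Ras to ERK signalling (0.25), and Zfp800 (0.26). Members with small changes lie close to many genes by this measure, so its size is not compared between members.

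A list of 18 other dual specificity and slingshot phosphatases was counted beside the members. It included Dusp15, Dusp21 and Dusp27, which lay under background on every array. Of 18 measured, nascent RNA of 0 was higher and of 2 lower at 45 min, where 3.05% and 5.88% of all genes were, and at 270 min 2 rose and 7 fell, where 8.87% of all genes rose and 14.2% fell. The median differences were -0.04 and -0.19. Of the 7 that fell at 270 min, Dusp13 and Dusp18 were not above background on either 270 min nascent array. The risers, named after their values were seen, were Dusp11 (0.78, SE 0.20, adjusted p = 0.0114) and Dusp28 (0.82, SE 0.24, adjusted p = 0.0217), and both also rose in total RNA at 270 min, by 0.76 and 0.81. Like Dusp16 they rose from 45 to 270 min in both fractions, by 0.77 and 0.96 in nascent and 0.63 and 1.00 in total RNA, and their nascent differences at 45 min were 0.01 and -0.14. On the 45 min nascent arrays Dusp28 lay close to background, at 6.44 and 6.81 where background was 6.48 and 6.76. In total RNA limma called 0 at 45 min (0 higher and 0 lower at an unadjusted p under 0.05) and 2 higher and 5 lower at 270 min (7.02% and 12% of all genes). Among the 5, Dusp19 was not above background on either 270 min total array. Dusp3, a small atypical phosphatase of ERK and JNK, measured 10.69 and 11.12 in unstimulated nascent RNA and 7.71 and 7.72 at 270 min, and fell by 3.19 (SE 0.28, adjusted p = 1.6e-06). The cofilin phosphatase Ssh2 fell by 2.98 (SE 0.24, adjusted p = 8.19e-07), from 10.08 and 9.64 to 6.68 and 7.08. Both fell in total RNA too, by 2.20 and 2.24. At 45 min Dusp12 and Ssh3 were lower in nascent RNA; Ssh3 fell by 0.95 (SE 0.27, adjusted p = 0.0419), and Dusp12 was not above background on either 45 min array.

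The MAP kinases themselves were counted next, with Mapk10 and Mapk11 under background on every array. Of 9 MAP kinases measured, 1 rose and 1 fell in nascent RNA at 45 min: Mapk6, an atypical MAP kinase, by 0.74 (SE 0.21, adjusted p = 0.0472), and Mapk7, which encodes ERK5, by -1.02 (SE 0.19, adjusted p = 0.00495). The shares of all genes at 45 min were 3.05% and 5.88%. At 270 min 0 rose and 1 fell in each fraction (8.87% and 14.2% of all genes in nascent, 7.02% and 12% in total RNA), Mapk7, by 1.24 in nascent and 1.09 in total RNA. A block for the experiment made this 2 in nascent RNA. In total RNA at 45 min limma called 0, with 1 higher and 1 lower unadjusted.

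Of 16 kinases upstream of the MAP kinases, limma called 0 in nascent RNA at 45 min, with 2 higher and 1 lower at an unadjusted p under 0.05 and the same counts called with the experiment as a block. At 270 min 3 of the 16 rose and 7 fell in nascent RNA, where 8.87% of all genes rose and 14.2% fell. In total RNA 3 rose and 7 fell as well, against 7.02% and 12% of all genes. Among the 7 that fell in total RNA, Map2k6 was not above background on either 270 min total array. Map3k1, which activates the JNK branch, measured 11.12 and 11.04 in unstimulated nascent RNA and 8.40 and 8.29 at 270 min, and fell by 2.73 (SE 0.25, adjusted p = 2.29e-06). In total RNA at 45 min 0 of the 16 were called, with 1 higher and 0 lower unadjusted.

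Of 7 kinases activated by MAP kinases, nascent RNA of 1 rose and of 0 fell at 45 min, while 1 rose and 4 fell at 270 min (of all genes 3.05% and 5.88% at 45 min, 8.87% and 14.2% at 270 min). With the experiment as a block 1 fell at 45 min as well. The riser was Mapkapk2, the p38 effector that stabilises cytokine mRNAs, at 9.58 and 10.29, then 12.18 and 11.99, then 11.95 and 11.66 in nascent RNA. It rose by 2.15 at 45 min (SE 0.22, adjusted p = 4.14e-05) and by 1.87 at 270 min (SE 0.22, adjusted p = 2.7e-05). In total RNA it differed by 0.56 at 45 min, when limma called 0 of the 7 (1 higher and 0 lower unadjusted), and rose by 1.64 at 270 min (SE 0.22, adjusted p = 0.000118), when 1 of 7 rose and 2 fell (7.02% and 12% of all genes). Mknk2 and Mknk1, kinases of the translation factor eIF4E, fell by 2.76 (SE 0.28, adjusted p = 7.06e-06) and 1.99 (SE 0.33, adjusted p = 0.000537) in nascent RNA at 270 min.

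The last list held other MAP kinase feedback genes, among them inhibitors of the pathway and genes that act upstream of p38 and JNK. Of 18 measured, 3 rose and 1 fell in nascent RNA at 45 min (3.05% and 5.88% of all genes), with a median of 0.22. At 270 min 4 rose and 4 fell (8.87% and 14.2% of all genes). Ier3, an early response gene that acts on ERK signalling, rose by 3.42 (SE 0.24, adjusted p = 1.11e-06), the receptor tyrosine kinase inhibitor Spry1 by 2.10 (SE 0.26, adjusted p = 0.000176) and the EGF receptor inhibitor Errfi1 by 1.90 (SE 0.19, adjusted p = 4.06e-05). Spry3 was called lower, with neither 45 min array above background, and lower again at 270 min with neither 270 min nascent array above it. In total RNA 2 rose and 0 fell at 45 min, Ier3 by 2.74 (SE 0.24, adjusted p = 1.99e-05) and Errfi1 by 1.76 (SE 0.19, adjusted p = 0.000182), against 0.662% and 0.0201% of all genes, and 4 rose and 4 fell at 270 min, against 7.02% and 12%. At 270 min the Ras inhibitor Spred1 rose by 2.06 in nascent RNA (SE 0.24, adjusted p = 2.65e-05), and Gadd45g, a stress sensor upstream of p38 and JNK, fell by 3.78 (SE 0.79, adjusted p = 0.00288). The experiments disagreed in size for Gadd45g, with -2.49 in experiment 1 and -5.07 in experiment 2. Rasa3, a Ras GTPase-activating protein, fell by 3.39 (SE 0.20, adjusted p = 3.53e-08).

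**Figure D4:**
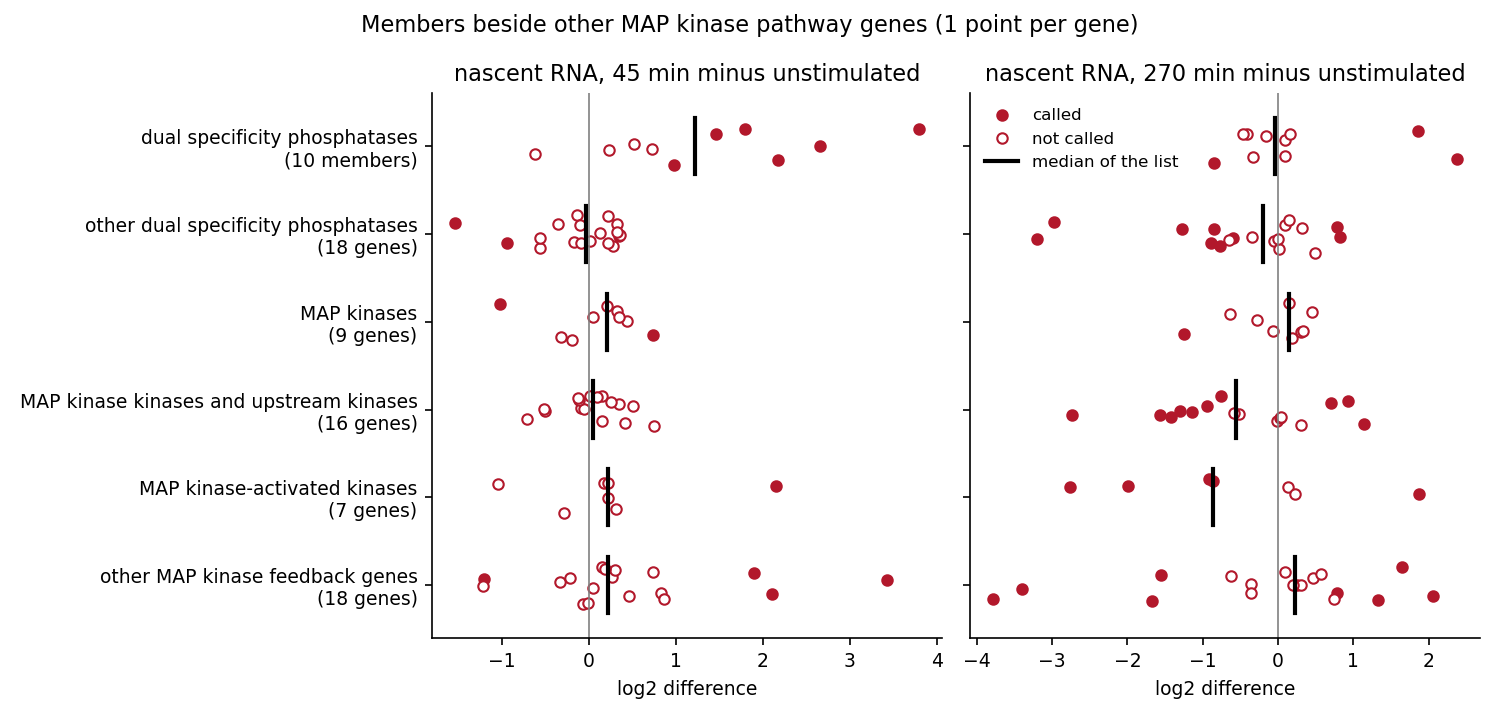
Log2 difference in nascent RNA from unstimulated cells (x axis) at 45 min (left) and 270 min (right) for the 10 phosphatases and 5 lists of other MAP kinase pathway genes (y axis), 1 point per gene, filled where adjusted p is below 0.05, with a black bar at the median of each list. At 45 min the median is 1.22 for the phosphatases and between -0.04 and 0.22 for the other lists. The other lists were not limited to detected genes, and Dusp15, Dusp21, Dusp27, Mapk10 and Mapk11 in them lay under background on every array.

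The experiments differed in ways the groups do not explain. In unstimulated nascent RNA the median gap between the 2 arrays was 0.35 over the 10 members, and in unstimulated total RNA it was 0.15, with Dusp1 1.25 apart. Experiment 1 was the higher for 3 of 10 members in unstimulated nascent RNA and for 8 of 10 in unstimulated total RNA. The unstimulated nascent array of experiment 2 had an interquartile range of 3.00 over all genes, and the other nascent arrays 2.24 to 2.64. The 270 min total array of experiment 2 had a range of 2.32, and the other total arrays 2.73 to 3.02. Its background was 6.72, and that of the other total arrays 6.18 to 6.32. The part of these differences between arrays in the unstimulated values of Dusp1, Dusp2, Dusp4 and Dusp6 was not tested. Their part in the total RNA values at 270 min was not tested either.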

How the data were processed

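RNA was hybridised to 12 arrays, and the deposited intensities are linear values per probe set. The authors made them with Affymetrix Expression Console and RMA, as the submitters' processing notes list; the version is not given in the sources used here. RMA compresses differences of dim genes, and its scaling can remove a shift that all genes of one array share. Whether all 12 arrays were scaled together is unknown, and the deposited arrays still differed. Median intensities ran from 82.9 (total RNA at 45 min, experiment 1) to 105.3 (unstimulated nascent RNA, experiment 1). Interquartile ranges of log2 values ran from 2.24 (nascent RNA at 45 min, experiment 2) to 3.02 (total RNA at 45 min, experiment 2). Of 35557 probe sets, 21789 had 1 symbol in GEO's annotation, 1621 had several and 12147 had no entry; the brightest probe set per symbol gave 19938 genes. From the deposited intensities log2 was taken, and limma 3.58.1 (R 4.3.3; lmFit and eBayes with an intensity trend) was fitted to all 12 arrays for the comparisons of times, and to the 6 differences of nascent minus total array of a culture for the others. P-values were adjusted over all 19938 genes by Benjamini-Hochberg. The script was tested on simulated data.

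Depth does not apply to arrays; with 2 arrays per group, their number limits the precision. Within groups r across genes was 0.9806 to 0.9891, and no arrays were identical. The experiment number marks an independent experiment shared by all 6 groups, per the series' design text, so it pairs the arrays; deviations from group means correlated between groups at -0.29 to 0.64. The fit without the block was used, and blocked values are given where a member's call changed or a list's count moved by over 1.5 times.

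The members and gene lists were chosen with earlier results of these data known. All 10 members are named; of each pathway list up to 4 called genes of largest difference could be named, and for each member that rose in nascent RNA at 45 min the 3 genes of nearest pattern. Alternatives were the block, quantile scaling over all arrays or within each fraction, an offset of 32 before log2, no intensity trend, the mean of all probe sets of a gene, dim genes left out (12175 genes kept), no pairing of fractions and each array left out. Motifs were searched in RefSeq promoter windows.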

Additional observations from a re-analysis of the deposited data

Results flagged for a closer look

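Dusp8 was the 1 phosphatase of 10 whose response was called as different between nascent and total RNA. From 45 to 270 min its nascent RNA changed by -1.92 and its total RNA by -0.74, and the difference between these changes was -1.1826 (SE 0.30, adjusted p = 0.0336 in limma on the culture differences), with the same direction in both experiments. Over its alternatives the adjusted p ran from 0.00108 to 0.307, the lowest from a fit without an unstimulated culture in which limma's prior was infinite. Groups of 2 arrays are too small for a search for single arrays that stand apart.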

How the results depend on the processing

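The 66 member values counted here are those that passed in the main fit or in at least 1 alternative. Of their 1134 alternative values, 1029 kept direction and side of the threshold, 63 no longer passed, 38 newly passed and 4 turned direction. Each of the 4 turned on leaving out an experiment 2 sample of unstimulated cells. Some alternatives could not move the difference itself, such as leaving out an array of the other fraction, so the 1029 do not measure stability. Leaving out either unstimulated sample gave -1.26 and 0.029 for Dusp6 in nascent RNA at 45 min and 1.05 and -0.20 for Dusp1 in total RNA at 270 min. For the nascent minus total response at 270 min it gave -0.86 and 0.47 for Dusp2 and -1.04 and 0.014 for Dusp4. None of the 4 was called with all arrays or on the side that turned, and the opposite leave-out made a call of each (adjusted p = 0.0161, 0.0311, 0.0442 and 0.019). With quantile scaling within each fraction 0 members were lower in nascent RNA at 270 min and 2 were higher in total RNA from 45 to 270 min. With the experiment as a replicate block the members called lower in the nascent minus total response numbered 1 at 45 min, 1 at 270 min and 4 from 45 to 270 min; beside the calls named in the text the block changed no other call of a member. Without pairing nascent and total arrays 0 members were called in the response from 45 to 270 min, and 3 were higher in nascent than total RNA at 270 min. The cause was not tested. Leaving out 1 array or culture at a time gave 5 to 6 members higher and 0 to 1 lower in nascent RNA at 45 min, 2 to 2 and 0 to 1 at 270 min, and 1 to 1 and 7 to 7 from 45 to 270 min. In total RNA it gave 2 to 4 higher at 45 min, 2 to 3 higher and 0 to 1 lower at 270 min, and 1 to 2 higher and 2 to 6 lower from 45 to 270 min. Members lower in the response numbered 0 to 2 at 45 min, 0 to 3 at 270 min and 0 to 4 from 45 to 270 min, and members higher in nascent than total RNA 5 to 7, 6 to 9 and 3 to 6 in unstimulated cells, at 45 and at 270 min. A fit that leaves a group with 1 array assumes that it varies like the others. Fits of the culture differences with the block, or without an unstimulated or 270 min culture, had an infinite prior in limma, so their p-values do not carry the gene's own spread. Dim members limit what can be seen: Dusp5, Dusp10 and Dusp14 lie close to background, where RMA compresses differences.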
